A study of Mus musculus with 4 samples.

Results

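Kinesins and dynein are the motor proteins that carry cargo along microtubules, and the genes of their subunits were followed here across the neurons of the adult mouse spiral ganglion. The members were all gene symbols of the count tables beginning with Kif, Klc, Dync or Dynl and were taken by name only, which gave 54 genes of 18143. They comprised 36 Kif genes, 4 kinesin light chain genes (Klc), 7 dynein genes of the Dync series and 7 dynein light chain genes of the Dynl series. Kif1bp entered by its name, although it encodes a kinesin-binding protein and no motor. In an axon the microtubules point with their plus ends outward, so that most kinesins carry vesicles, mitochondria and cytoskeletal proteins away from the cell body and cytoplasmic dynein brings endosomes and trophic signals back. Kinesin-1 is built from a Kif5 heavy chain and Klc light chains, and dynein-1 from a heavy chain, intermediate chains, light intermediate chains and small light chains. Spiral ganglion neurons are bipolar and depend on this transport at both ends, since one axon reaches the hair cells and the other the brainstem.

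The cells came from 4 wild-type CBA/CaJ mice, all male and 9 weeks old, with the tissue of both ears of a mouse pooled and the modiolus of the temporal bones dissociated for droplet capture. All populations therefore share strain, sex, age and genotype, and there was no treatment. The authors' deposited annotation names 5 populations: the myelinated type I neurons of subtypes IA, IB and IC, the type II neurons, which contact outer hair cells, and neurons called putative. The question was which motors differ between type II and type I neurons and among the type I subtypes.

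There were 95 type II neurons, 505 putative neurons and, of the type I subtypes, 2384 cells of IA, 1625 of IB and 2104 of IC, 6713 in all, and mice 1 to 4 gave 15151343 to 27309045 unique molecular identifiers (UMIs, each marking 1 captured RNA molecule near its 3′ end). Levels are in CPM, the UMIs of a gene among 1000000 UMIs summed over all cells of a population in a mouse, with the mean ± SD over the 4 mice. Depth behind type II was low, with 1288798 UMIs over the 4 mice against 21631826 to 29830361 for each type I subtype. The 7 type II markers tested were all higher in type II, and their summed level was 1773 CPM ± 514 there against means of 242 to 258 CPM in the type I subtypes. Of the 95 type II cells, 58 held a UMI of Prph, the peripherin gene that defines the type, and 37 held none. Markers of satellite glia, which wrap ganglion neurons, were also high: 6 of 7 were higher in type II, none was at 0 in any population, and their sum lay between 5861 and 10701 CPM in the type II sums against 1144 to 1563 CPM in the type I sums. Across the 4 libraries 26 cell barcodes were shared by more than 1 mouse.

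The paralogous dynein intermediate chains Dync1i1 and Dync1i2, which link the dynein motor to its cargo adaptors, went in opposite directions in type II neurons, and the DNA around their start sites is shown for that reason. The lower Dync1i1 level was called in 14 of 14 alternative fits, but the higher Dync1i2 level in only 8 of 14. Each window holds 250 bases before and 50 after a RefSeq start site on build GRCm38.p6, read 5′ to 3′ on the plus strand. The window of Dync1i1 is chr6:5725389-5725688 and that of Dync1i2 is chr2:71211456-71211755, the latter being 1 of 2 windows listed for the gene. Capitals mark a GC box, GGGCGG or its reverse complement CCGCCC.
Dync1i1: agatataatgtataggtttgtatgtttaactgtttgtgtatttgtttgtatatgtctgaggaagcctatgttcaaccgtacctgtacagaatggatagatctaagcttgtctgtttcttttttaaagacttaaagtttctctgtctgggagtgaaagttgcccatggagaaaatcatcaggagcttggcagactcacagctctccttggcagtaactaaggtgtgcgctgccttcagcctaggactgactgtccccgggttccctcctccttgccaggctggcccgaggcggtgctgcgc
Dync1i2: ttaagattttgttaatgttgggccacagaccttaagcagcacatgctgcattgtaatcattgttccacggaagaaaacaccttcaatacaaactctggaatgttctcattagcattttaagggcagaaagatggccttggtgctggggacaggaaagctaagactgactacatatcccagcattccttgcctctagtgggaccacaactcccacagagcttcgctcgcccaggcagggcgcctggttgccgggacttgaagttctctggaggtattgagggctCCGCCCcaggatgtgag
The Dync1i1 window held no GC box and 46.7% G and C, and the Dync1i2 window held 1 GC box and 50% G and C. Among 49 windows that matched 43 of the motor genes, 75.5% held a GC box on either strand, against 35.7% of all 32851 windows of the same length. The motor windows had a median of 62.3% G and C and 26 CpG, and all windows 52.7% and 7. A cAMP response element (TGACGTCA) was present in 8.16% of motor windows and 1.79% of all, and the CCAAT box (CCAAT) in 40.8% and 37.4%. The TATA box (TATAAA) was present in 10.2% and 13.6%. Neither printed window held any of these last 3 motifs, and a match is a run of letters only.

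In type II neurons, the kinesin-1 heavy chains Kif5a and Kif5c, their light chain Klc2 and the dynein subunits Dync1h1 and Dync1i1 were lower than in type I neurons, by 1.36-fold to 2.15-fold. Kif21a, Dynll1 and Dync1i2 were higher, by 1.23-fold to 1.55-fold. Dync1i2 was the least firm of these, called in 8 of 14 alternative fits against 14 of 14 for Kif21a and Dynll1. It was not called without the cells holding 3 or more UMIs of the satellite glia gene Fabp7. Counts were tested with edgeR's quasi-likelihood test across all genes with the mouse as a block, and a gene was called at a Benjamini-Hochberg adjusted p under 0.05. Of the 54 motor genes, 38 passed the low-count filter, and 11 of these were called between type II and the mean of types IA, IB and IC, with 4 higher and 7 lower. That is 28.9% of the motors tested, beside 23.7% of all 13005 genes tested. Among all genes, 12% were called higher and 11.7% lower. The median log2 difference of the 38 motors was -0.13, beside -0.05 for all genes. The summed level of all motor genes was 6255 CPM ± 604 in type II, against 6696 CPM ± 82.6 in type IA, 6887 CPM ± 37.4 in IB and 6959 CPM ± 119.7 in IC, and its type II values of 5562 to 7026 CPM overlapped those of type I. Over the motors at 100 CPM or more, the coefficient of variation between mice had a median of 24.0% in type II and of 4.07 to 6.34% in the type I subtypes. The satellite glia markers were high in the same type II sums, and values without the cells that carry them follow with the subsets of type II cells. In these sums of cells, fewer transcripts per cell and fewer cells holding the transcript cannot be told apart.

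Kinesin-1 heavy chains drive fast outward transport in axons. Kif5c, a neuronal form, stood at 205, 91.1, 138 and 118 CPM in type II neurons of mice 1 to 4, while all 12 type I sums lay between 243 and 291 CPM. The groups did not overlap, and mouse 1 was the nearest to type I. The log2 difference was -0.87 ± 0.11 (SE; adjusted p = 1.39e-09, edgeR), a 1.82-fold lower level seen in 4 of 4 mice. With 1 mouse left out that difference ran from -1.19 to -0.80. Kif5a, also confined largely to neurons and known from hereditary spastic paraplegia, stood at 190.2, 129, 197 and 141 CPM in type II and between 239.5 and 268 CPM in type I. It was lower in type II in every mouse, by 0.59 ± 0.10 on the log2 scale (adjusted p = 3.93e-06). Kif5b, the form found in most cell types, did not pass the test: type II stood at 258, 281, 195 and 164 CPM, across the type I range of 220.4 to 259.9 CPM, with a log2 difference of -0.16 ± 0.10 (adjusted p = 0.278).

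The kinesin light chains bind cargo and hold the heavy chain inactive when none is bound. Klc2 stood at 236, 98.7, 189.6 and 136 CPM in type II and between 275 and 347 CPM in type I, without overlap. Its log2 difference was -0.84 ± 0.11 (adjusted p = 1.2e-09, edgeR) in 4 of 4 mice, and ran from -1.13 to -0.76 with 1 mouse left out. Klc1, the light chain with a mean level of 772 to 867 CPM in the type I subtypes, was 744 CPM ± 42.1 in type II. It was called lower by a small step of 0.21 ± 0.08 on the log2 scale (adjusted p = 0.0431), and the groups overlapped. Without mouse 2 or mouse 3 Klc1 was not called (adjusted p = 0.154 and 0.245), nor with no TMM factor (adjusted p = 0.175), no mouse block (0.0618) or equal cell numbers (0.596). Exons of Klc1 overlap those of Xrcc3 on the opposite strand, and no source used here says whether the counting used strand. The same limit holds for Klc3 with Ercc2, Kif2a with Dimt1 and Kif3c with 1110002L01Rik. Klc3 was called higher (1.32 ± 0.50, adjusted p = 0.0421) on 12 UMIs in type II. Without mouse 1, 3 or 4 it was not called (adjusted p = 0.322, 0.067 and 0.12), and with cells thinned to 1 depth its log2 difference was -0.60 and not called (adjusted p = 0.839). Klc3 falls outside the rule for named genes in this comparison and is named after its values were seen. Klc4 was not called.

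Of the other kinesin families, Kif1a and Kif21a were called. Kif1a, the kinesin-3 that carries synaptic vesicle precursors and dense core vesicles, stood at 386, 319, 356 and 273 CPM in type II and between 377 and 433 CPM in type I. Mouse 1 of type II lay inside the type I range, yet type II was the lower in each of the 4 mice, by 0.32 ± 0.09 on the log2 scale (adjusted p = 0.0042, edgeR). With equal cell numbers it was not called (-0.16, adjusted p = 0.32). Kif1b, its relative that carries mitochondria and vesicles, gave -0.01 ± 0.08 (adjusted p = 0.963). The kinesin-2 subunits Kif3a and Kif3c gave -0.08 ± 0.14 and -0.06 ± 0.12, and neither was called. Kif21a of the kinesin-4 family, which slows microtubule growth and is mutated in a congenital disorder of eye movement, was higher in type II. It stood at 384, 349, 272 and 459 CPM in type II and between 198 and 262 CPM in type I. All 4 type II values lay above all 12 type I values, and the log2 difference was 0.63 ± 0.09 (adjusted p = 1.69e-08). With 1 mouse left out that difference ran from 0.51 to 0.77.

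Dynein-1 carries cargo back to the cell body. Dync1i1, the intermediate chain enriched in neurons (chromosome 6, 5725639 to 6028039, plus strand), stood at 254, 75.9, 141 and 136 CPM in type II neurons of mice 1 to 4. The 12 type I sums lay between 340.2 and 379 CPM, so that the highest type II value was well below the lowest type I value. The log2 difference was -1.10 ± 0.12 (adjusted p = 1.18e-10, edgeR), a 2.15-fold lower level. With 1 mouse left out that difference ran from -1.57 to -1.01, beyond the stated SE. Dync1i2, the broadly expressed intermediate chain (chromosome 2, 71211706 to 71263303, plus strand), stood at 245, 182, 233 and 245 CPM in type II and between 167 and 213 CPM in type I. Mice 1, 3 and 4 of type II were above the type I range and mouse 2 was inside it, with a log2 difference of 0.30 ± 0.10 (adjusted p = 0.0178). Without mouse 1 or mouse 3 it was not called (adjusted p = 0.21 and 0.127). The heavy chain Dync1h1, the motor subunit itself, stood at 318, 304, 287 and 236 CPM in type II and between 348 and 397 CPM in type I. The groups did not overlap, and the difference was -0.45 ± 0.10 (adjusted p = 0.000181). The light intermediate chains Dync1li1 and Dync1li2 gave -0.12 ± 0.12 and -0.17 ± 0.11 and were not called.

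Of the 7 dynein light chain genes, Dynll1 alone was called between type II and type I. Dynll1 encodes an LC8 light chain, a small dimer that also binds many proteins outside dynein. It stood at 637, 1040.5, 756 and 641 CPM in type II and between 462 and 621 CPM in type I. Mouse 2 was the highest of the 4, no type II value fell within the type I range, and the log2 difference was 0.34 ± 0.08 (adjusted p = 0.000512, edgeR). Against type IC alone, whose mean Dynll1 level was above that of type IA, Dynll1 was not called. Dynll2, the second LC8 gene, gave -0.12 ± 0.08, Dynlrb1 of the roadblock type gave -0.07 ± 0.08 and Dynlt3 of the Tctex type gave -0.13 ± 0.10. Dynlt1c and Dynlt1f are near-identical copies between which reads cannot be assigned with certainty, and neither was called.

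**Figure D1:**
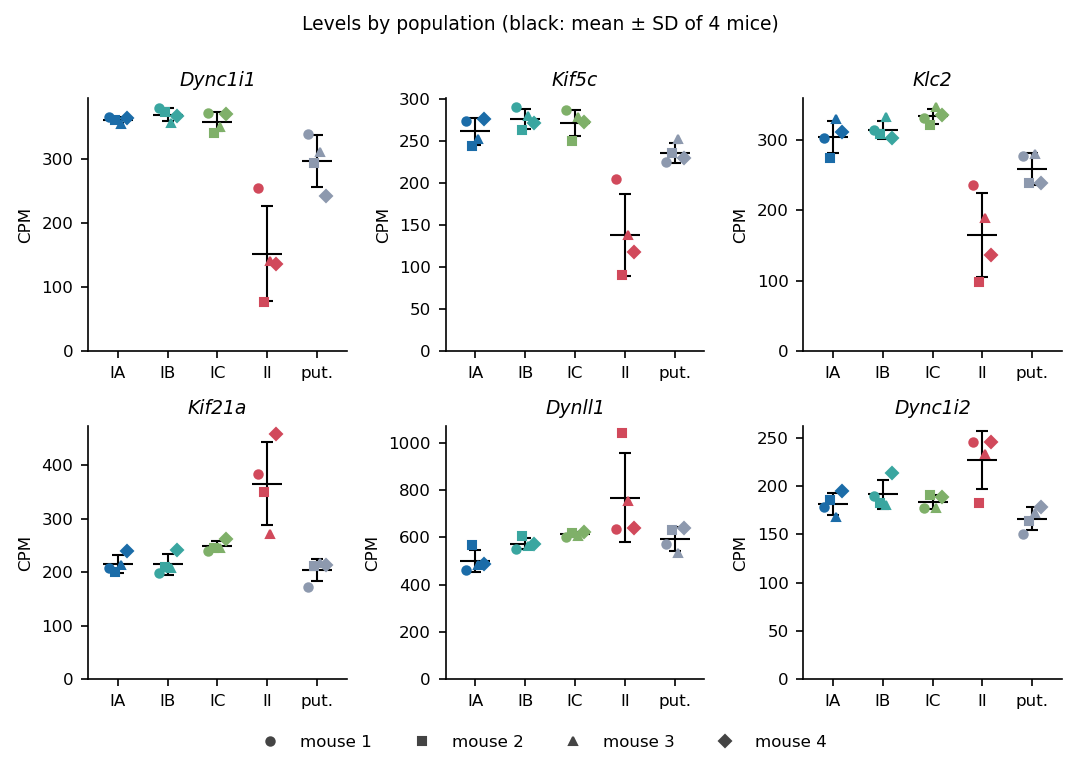
CPM (y axis) of 6 motor genes in the 5 populations (x axis; put., putative), with 1 marker per mouse and the mean ± SD of 4 mice in black. Type II lies below every type I value for Dync1i1, Kif5c and Klc2 and above every one for Kif21a and Dynll1, while Dync1i2 of mouse 2 lies at 182 CPM among the type I values.

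Levels of paralogs are also given as shares within a family. As a share of the UMIs of both intermediate chains, Dync1i1 made up 66.5% ± 1.28 in type IA, 65.8% ± 1.75 in IB and 66.1% ± 1.45 in IC. In type II it made up 50.9, 29.4, 37.7 and 35.7% in mice 1 to 4, all below the type I range of 63.2 to 67.9%. Kif5c made up 25.9% ± 5.59 of Kif5 UMIs in type II against means of 34.7 to 35.8% in the type I subtypes. Kif5b made up 42.7% ± 8.95 against means of 30.8 to 31.9%, with all 4 type II values above the type I range. Klc2 made up 17.1% ± 4.53 of light chain UMIs in type II against 25.4 to 29.1%, and Dynll1 57.7% ± 6.6 of LC8 UMIs against 48.8 to 49.5%. These shares were not tested, and the 3′ ends of the genes of a family may be captured unequally, so that only the difference between populations is described.

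**Figure D2:**
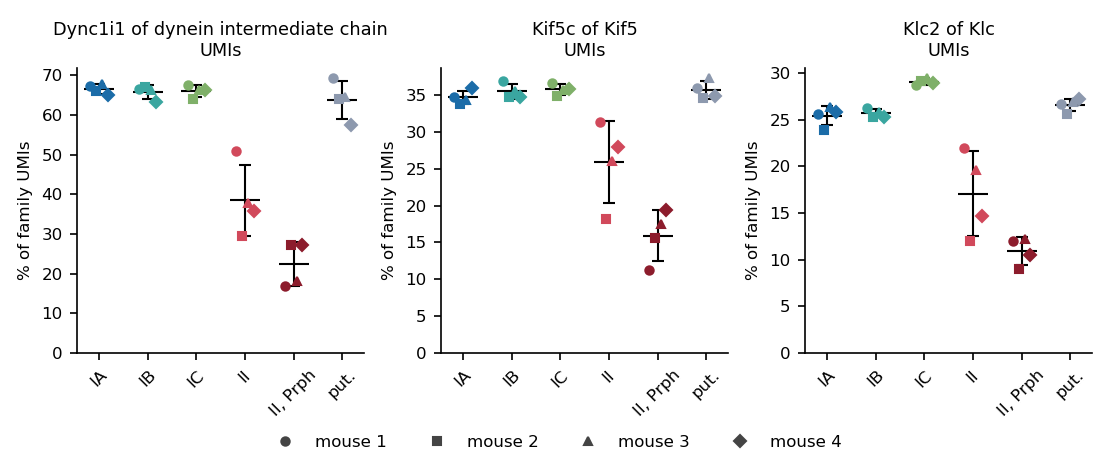
Share (%, y axis) of Dync1i1 among dynein intermediate chain UMIs, of Kif5c among Kif5 UMIs and of Klc2 among Klc UMIs, in the 5 populations and in type II cells with a Prph UMI (x axis; put., putative), with 1 marker per mouse and the mean ± SD in black. The share of Dync1i1 has a mean of 38.4% in type II and 22.4% in type II cells with a Prph UMI, below the type I means of 65.8 to 66.5%.

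The type II label covered cells that differed in their markers, so the comparison was repeated on subsets of them. Summed type I markers stood at 4782 CPM ± 2543 in all type II cells and at 2117 CPM ± 146 in those with a Prph UMI, and between means of 8681 and 15338 CPM in the type I subtypes. With the 58 Prph cells alone as type II, 20 of 38 motors were called, 5 higher and 15 lower, beside 30% of all genes tested, and all 11 motors called with all cells were among the 20. Dync1i1 then stood at 68.9, 73.5, 64.9 and 100.3 CPM on 46 UMIs, with a log2 difference of -2.39 ± 0.17 (adjusted p = 1.97e-31, edgeR). Kif5c gave -2.17 ± 0.18, Klc2 -1.86 ± 0.16, Kif5a -1.20 ± 0.15, Dync1h1 -1.09 ± 0.13 and Kif1a -0.87 ± 0.12. Kif1b (-0.71 ± 0.12, adjusted p = 7.42e-08), Kif3c (-0.70 ± 0.17, adjusted p = 0.000439) and Dynll2 (-0.48 ± 0.09, adjusted p = 7.02e-06) were also called lower. For Kif3c this was the only call in 14 alternative fits. The higher levels of Kif21a (0.48 ± 0.11), Dynll1 (0.47 ± 0.08) and Dync1i2 (0.48 ± 0.12) were called as well. So was that of Klc3 (2.13 ± 0.57), on only 11 UMIs in these cells. In this subset the satellite glia markers summed to 13870.0 CPM ± 662, more than in all type II cells.

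The comparison was also run without every cell with 3 or more Fabp7 UMIs, Fabp7 being a marker of those glia. This took away 38 of the 95 type II cells and, since under 10 were left, the type II sum of mouse 4, and the glial sum of type II dropped to 1664 CPM ± 355. It also changed the neuronal markers: the type I sum was 6483 CPM ± 2834 and the type II sum 1296 CPM ± 473, against 4782 and 1773 CPM with all type II cells. Of the type II cells kept by the Fabp7 rule, 29 held no Prph UMI, with a median of 17784 UMIs per cell against 9911 in the Prph cells, and the part of such cells in the smaller differences was not tested. Then 6 of 38 motors were called, beside 11.5% of all genes. Dync1i1 (-0.88 ± 0.14), Kif5c (-0.56 ± 0.12), Klc2 (-0.56 ± 0.12) and Kif5a (-0.36 ± 0.12) were lower, and Kif21a (0.62 ± 0.11) and Dynll1 (0.38 ± 0.09) were higher. Not called without these cells were Dync1h1 (-0.29 ± 0.11, adjusted p = 0.0719), Kif1a (-0.18 ± 0.10, adjusted p = 0.309), Dync1i2 (0.15 ± 0.12, adjusted p = 0.549), Klc1 (-0.22 ± 0.09, adjusted p = 0.0977) and Klc3 (1.31 ± 0.67, adjusted p = 0.233). In the 28 cells with a Prph UMI and under 3 Fabp7 UMIs, a choice made after seeing the data, the glial sum was 1979.5 CPM ± 457. There 16 of 38 motors were called, 4 higher and 12 lower, beside 21.3% of all genes, and 10 of them were among the 11 called with all cells. Dync1i1 gave -2.55 ± 0.23, Kif5c -2.07 ± 0.23, Klc2 -1.99 ± 0.21, Dync1h1 -1.26 ± 0.17 and Kif1a -0.93 ± 0.15. Dync1i2 gave 0.34 ± 0.17 and was not called (adjusted p = 0.147). Kif3c gave -0.42 ± 0.21 and was not called either (adjusted p = 0.156, edgeR). The median of all genes moved to -0.19 with the Prph cells and to -0.35 with the 28 cells, from -0.05, and the differences of single motors are to be read against those shifts.

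**Figure D3:**
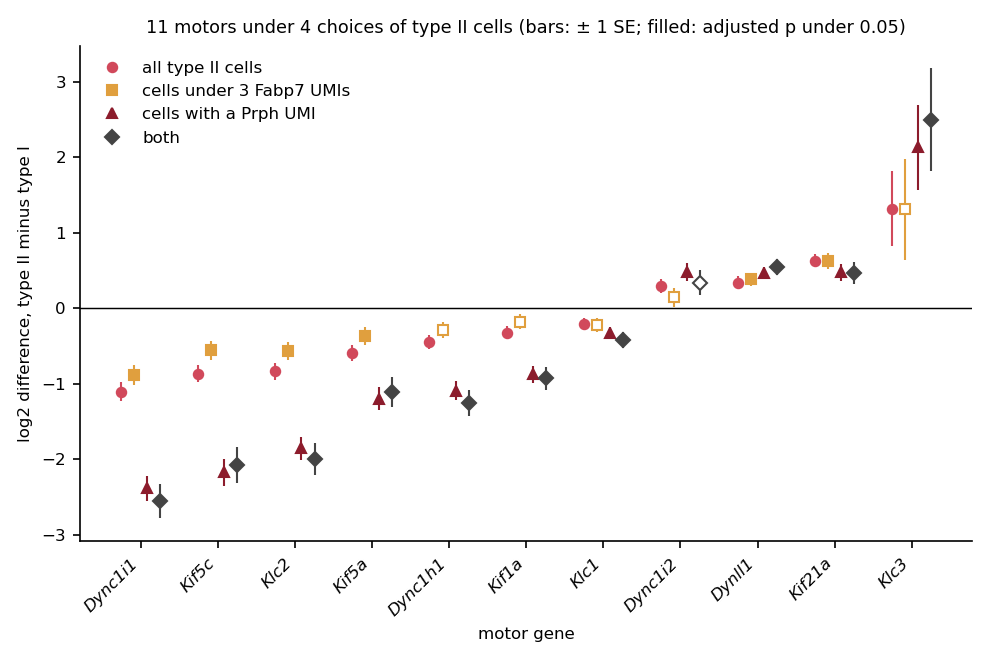
Log2 difference between type II and type I (y axis, ± 1 SE) of the 11 motors called with all type II cells (x axis), for all type II cells, those under 3 Fabp7 UMIs, those with a Prph UMI and those with both properties, with filled markers past the threshold. Dync1i1 moves from -1.10 with all cells to -0.88 under 3 Fabp7 UMIs and -2.39 with a Prph UMI, and Kif21a and Dynll1 are filled in all 4 choices.

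Set against each type I subtype in turn, 6 motors were lower in type II than in every subtype: Dync1h1, Dync1i1, Kif1a, Kif5a, Kif5c and Klc2. Among all genes, 7.61% met that rule. Kif21a alone was higher than in every subtype, a rule met by 8.87% of all genes. For a count cell by cell, cells were thinned to 4215 UMIs and shallower cells were left out. A Dync1i1 UMI was then present in 41.3% (lowest mouse 30.3%, highest 56.5%) of type II cells. In the type I subtypes it was present in 76.3 to 77.6% of cells, as means over mice. Before thinning the shares were 66.1% ± 10.2 and 91.3 to 93.9%, at mean median depths of 12385 UMIs per cell in type II and 13166 to 15802 in type I. All cells analysed here carried a neuron label, so that a share in a cell type without the gene was not at hand.

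Among the type I subtypes, the motors called were dynein light chains, a light intermediate chain (Dync1li1), the dynein-2 heavy chain, the kinesin-2 subunits Kif3a and Kif3c, and Kif21a, Kif22, Kif26b and Kif2a. Any difference among the subtypes was called for 12 motors, 31.6% of the 38, beside 31.7% of all genes. It was called for 6 with no mouse block, a setting whose all-gene share is not given here. Type IA and type IC differed in 9 motors, 1 higher and 8 lower in type IA, which is 23.7% of those tested beside 32.4% of all genes. None of Kif5a, Kif5b, Kif5c, Kif1a, Kif1b, Klc1, Klc2, Dync1h1, Dync1i1 and Dync1i2 was called among them. Between IA and IC, however, Klc1 (0.15, adjusted p = 0.0851) was called in 5 of 13 alternatives, Kif1b (-0.13, adjusted p = 0.084) in 6 and Klc2 (-0.12, adjusted p = 0.134) in 1. DESeq2 (adjusted p = 1.02e-05 and 0.00117) and the fit without mouse 4 (0.0301 and 0.0301) were among those for Klc1 and Kif1b. Dync1i1 stood at 361 CPM ± 4.68 in IA, 368 CPM ± 10.0 in IB and 358 CPM ± 15.2 in IC.

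Dynlt3, the Tctex-type light chain (chromosome X, 9654267 to 9663003, minus strand), fell in order from type IA to type IC. It stood at 427, 405, 440.3 and 432 CPM in IA, at 358, 351, 353 and 365 CPM in IB and at 293, 289, 285 and 264 CPM in IC. The subtypes did not overlap at any step. The log2 difference of type IA from type IC was 0.61 ± 0.07 (adjusted p = 3.29e-12, edgeR), that of type IA from type IB 0.26 ± 0.07 and that of type IB from type IC 0.34 ± 0.07. Dynlrb1, Dynll1 and Dynll2 ran the other way, while Dynlrb2, Dynlt1c and Dynlt1f were not called. Dynlrb1 rose from 466 CPM ± 39.2 in type IA to 586 CPM ± 22.6 in type IC (-0.31 ± 0.06 for type IA minus type IC). Dynll1 rose from 499 CPM ± 45.5 to 612 CPM ± 10.0 (-0.28 ± 0.07), and Dynll2 from 524 CPM ± 33.1 to 626 CPM ± 34.0 (-0.24 ± 0.07). For each of the 3 the type IA and type IC values did not overlap, and the order was the same in 4 of 4 mice. Without mouse 3 Dynll2 was not called (-0.23, adjusted p = 0.0553).

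Kif26b, a kinesin-11 that lacks motor activity and acts in signalling, stood at 5.79, 7.88, 9.05 and 7.70 CPM in type IA and at 14.8, 14.1, 14.8 and 16.8 CPM in type IC. Every type IC value was above every type IA value, and the log2 difference was -0.94 ± 0.12 for type IA minus type IC. Kif22, a chromosome-binding kinesin of the spindle, was rare throughout, at 2.75 CPM ± 0.259 in type IA and 6.41 CPM ± 0.451 in type IC (-1.19 ± 0.20). Kif2a, a kinesin-13 that shortens microtubules, gave -0.18 ± 0.05 with overlapping groups, and Kif21a gave -0.19 ± 0.06. Kif2a was not called without mouse 3 (-0.11, adjusted p = 0.215) or by DESeq2 (-0.19, adjusted p = 0.056), and Kif21a not without mouse 2 (-0.15, adjusted p = 0.114). Dync2h1, the heavy chain of the ciliary dynein-2, stood at 21.9 CPM ± 2.51 in type IA and 27.7 CPM ± 1.43 in type IC (-0.33 ± 0.08).

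**Figure D4:**
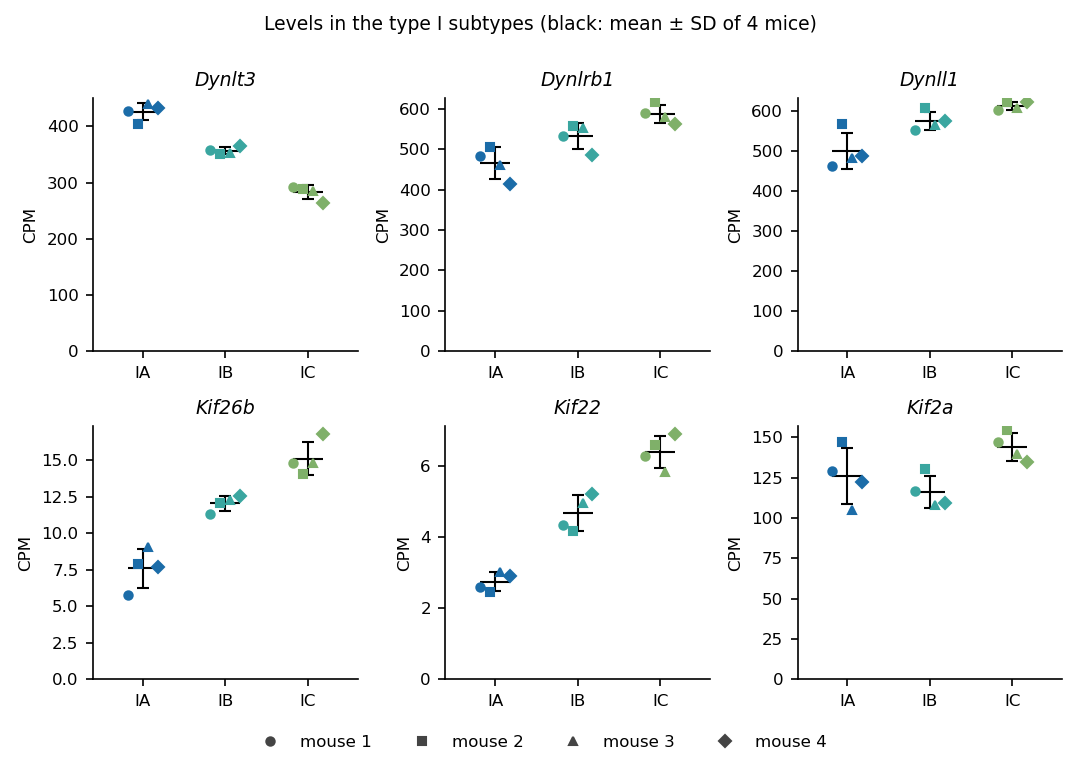
CPM (y axis, from 0) of 6 motor genes called between type IA and type IC in the type I subtypes (x axis), with 1 marker per mouse and the mean ± SD of 4 mice in black. Dynlt3 is highest in type IA (426 CPM) and lowest in type IC (283 CPM), and the other 5 genes are lowest in type IA or IB.

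Type IA and type IB differed in 8 motors, 3 higher and 5 lower in type IA, 21.1% of the 38 beside 15.8% of all genes (7.48% higher, 8.33% lower). That count was 4 without mouse 2, 3 without mouse 3 and 1 with no mouse block. All-gene calls in those fits were 1626 of 13108, 1368 of 13009 and 945 of 13005. Kif3a, a kinesin-2 subunit, was higher in type IA (0.26 ± 0.06), as was Dync1li1 (0.22 ± 0.05), and Kif22 (-0.75 ± 0.23) and Kif26b (-0.64 ± 0.14) were lower. Type IB and type IC differed in 5 motors, 1 higher and 4 lower in type IB, 13.2% beside 12% of all genes (6.44% higher, 5.57% lower), and the count was 3 without mouse 2 and 1 with no mouse block. Over all genes, 1086 of 13108 and 617 of 13005 were called in those fits. Besides Dynlt3 the 5 motors were Kif2a (-0.30 ± 0.06), Dync2h1 (-0.30 ± 0.09), Kif3a (-0.26 ± 0.06) and Kif21a (-0.20 ± 0.06). Without mouse 2 or 3, Kif22 between IA and IB (adjusted p = 0.0619 and 0.0628) and Kif21a between IB and IC (0.106 and 0.0668) were not called, nor Dync1li1 between IA and IB without mouse 3 (0.0555) or Dync2h1 between IB and IC without mouse 2 or 4 (0.103 and 0.0595). With the sums cut to the same number of cells as type II, 1 motor was called between type IA and type IC, and none of the 22 tested between type IA and IB or between type IB and IC (0 and 3 at an unadjusted p under 0.05, edgeR). Over all genes, 211, 68 and 48 of 4835 were called in these comparisons.

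Putative neurons had shallow cells, with a mean median of 5647 UMIs, and a satellite glia sum of 8459 CPM ± 469. Against the mean of the other 4 populations 8 motors were called, 1 higher and 7 lower, 21.1% of the 38 beside 13.8% of all genes (10.2% higher, 3.57% lower). That count was 4 without mouse 2 and 5 without mouse 3 or with no mouse block. All-gene calls in those fits were 1146 of 13108, 1454 of 13009 and 1444 of 13005. Dync1li1 was lower by 0.35 ± 0.08 on the log2 scale, Dync1h1 by 0.30 ± 0.07, Kif21a by 0.28 ± 0.07 and Klc1 by 0.24 ± 0.06, while Klc3 was higher (0.84 ± 0.29, on 39 UMIs). The mean of the other populations takes in type II, where Kif21a was higher than in type I by 0.63. In putative neurons Kif21a stood at 173 CPM in mouse 1 and at 212 to 217 CPM in the others. Putative neurons were not tested against type I alone. Klc3 was not called without mouse 1, 3 or 4 (adjusted p = 0.0536, 0.243 and 0.177) and Klc1 not without mouse 2 (0.0553). Dync1i1 stood at 296 CPM ± 40.8 and its share of intermediate chain UMIs at 63.8% ± 4.82, its values of 57.5 to 69.2% overlapping those of the type I subtypes. Thinning to 4215 UMIs left out shallower cells, 237 of the 505 putative ones. With the kept cells thinned to 1 depth none of 35 motors was called by edgeR (6 at an unadjusted p under 0.05). Whether depth, the cells left out or glial RNA had a part in these results was not tested. Over all genes, 586 of 11048 were called with thinned cells.

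The 16 motors under the low-count filter held 403 UMIs of the 587795 of all motor genes. They were mostly kinesins of cell division, such as Kif11, Kif15, Kif18a, Kif20a and Kif23, with Kif17, Kif7 and Kif27 of other roles. Kif17, a kinesin-2 known from dendritic transport, had 77 UMIs over all cells. In type II, 7 of the 16 had no UMI, and a count of 0 there allows a level of up to 2.33 CPM, the value of 3 counts. Markers of dividing cells summed to means of 2.13 to 4.09 CPM in the 5 populations.

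Partners of the motors were taken from lists of other genes in the pathway. They were examined only with all type II cells, where satellite glia markers were high, and not in the subsets or with 1 mouse out. Their counts stand beside 12% of all genes called higher and 11.7% lower between type II and type I, 23.7% together, and a median of -0.05 over all genes. Dynactin, the complex that activates dynein, had 12 genes tested between type II and type I. Dctn1, its microtubule-binding subunit, was lower (-0.45 ± 0.10), as were Dctn4 (-0.45 ± 0.17) and Actr1b (-0.41 ± 0.12). The capping subunits Capzb (0.30 ± 0.09) and Capza2 (0.32 ± 0.09) were higher, and the list's median was -0.15. Of 13 dynein regulators and adaptors, 3 were lower and none higher: Rab11fip3 (-1.06 ± 0.36), Nin (-0.995 ± 0.149) and Ndel1 (-0.72 ± 0.13), with a median of -0.48. Of 17 kinesin adaptors and cargo linkers, 5 were lower and none higher, with a median of -0.20. Snph, which anchors mitochondria in axons, gave -1.25 ± 0.16, the calsyntenins Clstn3 and Clstn1, which bind kinesin light chains, gave -0.73 ± 0.15 and -0.65 ± 0.09, and the JNK scaffolds Mapk8ip3 and Mapk8ip2 gave -0.59 ± 0.11 and -0.53 ± 0.12. Of 13 microtubule-associated proteins, Map1a (-0.99 ± 0.11), Map2 (-0.75 ± 0.09) and Map6 (-0.65 ± 0.19) were lower. Dclk1 (2.43 ± 0.26) and Map1b (0.29 ± 0.08) were higher, and the list's median was -0.31. The Dclk1 level also differed within type I, by 2.35 ± 0.14 for type IA minus type IC. Against type IA alone, Dclk1 was higher in type II by 1.00 ± 0.23. Putative neurons also had more Dclk1 than the mean of the other populations (1.52 ± 0.16), so its higher level was not particular to type II. Of 3 other kinesin genes tested, Kifc2 was lower (-0.84 ± 0.24). Capzb, Capza2, Mapk8ip3, Mapk8ip2, Map6 and Map1b are named after their values were seen.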

How the data were processed

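Single cells of 4 mice were profiled with 10x Genomics 3′ chemistry, and the authors deposited unnormalized UMI counts in a table for each animal. The submitters' processing notes name Cell Ranger 2.0.1, Seurat 1.4 and the build mm10, without their roles. The sources used here do not give how the authors labelled or filtered cells or treated doublets, and no doublet caller was run. A combined count table and a normalized table deposited with them were not used, and 0 columns of other samples were left aside. Labels describe the same cells whose counts are compared, so differences between labelled populations are not independent of the labels.

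UMIs were summed per mouse and population into 20 sums of at least 10 cells and fitted with edgeR 4.0.16 (R 4.3.3; filterByExpr, TMM, robust glmQLFit) with the mouse as a block, and p-values are two-sided and adjusted over 13005 genes within a comparison. Populations of a mouse come from 1 animal, which pairs the sums. Deviations from population means correlated at 0.325 to 0.572 between type I subtypes of a mouse and at 0.0494 to 0.143 between type II and type I. The SE of a log2 difference comes from the estimate and its F statistic, and all populations in a fit share the estimate of the spread. DESeq2 1.42.0, no TMM factor, no low-count filter, no mouse block, each mouse left out, no putative neurons, equal cell numbers, cells thinned to 4215 UMIs, cells with a Prph UMI and cells under 3 Fabp7 UMIs were alternatives, and the combination of the last 2 (sums of at least 5 cells) was added after seeing the data. Thinning left out the cells under 4215 UMIs: 205 of IA, 98 of IB, 126 of IC, 5 of type II and 237 putative. The spread estimated in the fit takes in capture and counting error and the variation between mice that the block leaves. Gene positions and exon overlaps are from GENCODE on GRCm38, and promoter windows are from RefSeq.

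The named motors are 14 known from axonal transport (Kif5a, Kif5b, Kif5c, Kif1a, Kif1b, Kif3a, Kif3c, Klc1, Klc2, Dync1h1, Dync1i1, Dync1i2, Dynll1 and Dynll2), up to 10 called motors with the largest differences and at least 20 UMIs for type II against type I and type IA against IC, and up to 5 elsewhere. Of each list of partners, up to 3 called genes were named by the size of their difference. The members, lists and rules were chosen with earlier results of these data known.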

Additional observations from a re-analysis of the deposited data

Results flagged for a closer look

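Over 23 named motors and 5 populations, 115 groups of 4 mice were examined, and in 5 of them 1 mouse lay far from the other 3. Chance marks about 1 in 20 such groups. Dync1li1 in putative neurons of mouse 4 stood at 94.2 CPM, and the other mice at 108 to 109 CPM. Kif1a in type IA of mouse 2 stood at 377 CPM, and the others at 421 to 427 CPM. Kif21a in putative neurons of mouse 1 stood at 173 CPM, and the others at 212 to 217 CPM. Kif22 in putative neurons of mouse 4 stood at 5.35 CPM, and the others at 0.943 to 1.39 CPM. Klc3 in type IB of mouse 3 stood at 2.65 CPM, and the others at 4.18 to 4.34 CPM.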

How the results depend on the processing

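Over the log2 differences of the named motors, 75 values under the alternatives lost the call, 19 gained one, and 558 kept both direction and call. In 27 the sign turned. Of these, 26 were called neither with all cells nor under the alternative, and none of the 26 was beyond 0.31 in size. The remaining one was Klc3 between type II and type I, at -0.60 with thinned cells and not called there. Between type II and type I, 11 motors were called, and 6 were called without cells of 3 or more Fabp7 UMIs and 20 with Prph cells alone, and 8 to 12 when 1 mouse was left out. Among all genes, the calls were 3088 of 13005, then 1519 of 13256 and 3887 of 12940, and 2226 to 2932 with 1 mouse out. Against each subtype, 7 motors were called, and 4, 16 and 11 without the Fabp7 cells, with Prph cells and with both, and 6 to 8 with 1 mouse out. With all type II cells 2144 of 13005 genes met that rule, and its all-gene share in the subsets is not given here. Against single subtypes, all-gene calls were 2941 to 3242 of 13005 with all cells and 3805 to 3944 of 12940 with Prph cells. They were 1458 to 1759 of 13256 without the Fabp7 cells and 2657 to 2813 of 12812 with both. Between type IA and type IC, 9 were called, 1 with equal cell numbers and 7 to 11 with 1 mouse out. Calls over all genes were 4212 of 13005, and 211 of 4835 with equal cells. Between type IA and type IB, 8 were called, 1 with no replicate block, 0 with equal cells, 5 with thinned cells and 3 to 9 with 1 mouse out. Over all genes the calls were 2056 of 13005, 945 of 13005 with no block, 68 of 4835 with equal cells and 1139 of 11048 with thinned cells. Between type IB and type IC, 5 were called, 1 with no replicate block, 0 with equal cells and 3 to 5 with 1 mouse out. All-gene calls were 1562 of 13005, 617 of 13005 with no block and 48 of 4835 with equal cells. Among all subtypes, 12 were called, 6 with no replicate block, 1 with equal cells and 8 to 13 with 1 mouse out. The all-gene counts of that test under the alternatives are not given here. In putative neurons, 8 were called, 5 with no replicate block, 1 with equal cells, 0 with thinned cells and 4 to 7 with 1 mouse out. Over all genes there were 1793 of 13005, 1444 of 13005 with no block, 223 of 4835 with equal cells and 586 of 11048 with thinned cells. Where a motor count fell and the all-gene calls are given, those calls fell too. Whether the motors fell by more or less than all genes was not tested. Equal cells means sums of few cells and 4835 genes tested, and for the other settings the cause was not tested. Depth limits type II, whose sums hold 1288798 UMIs.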
